A study of Saccharomyces cerevisiae with 4 samples.

Results

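The 7 genes that make and break down trehalose in Saccharomyces cerevisiae were followed across 4 Affymetrix arrays. They are the 4 synthesis genes TPS1, TPS2, TPS3 and TSL1 and the 3 hydrolysis genes NTH1, NTH2 and ATH1. Members were chosen by name, each was represented by 1 probe set, and all 7 were found among the 5449 genes tested. The arrays came from the strain W1588-4c, a MATa haploid with a RAD5+ allele, ura3-1, trp1-1 and ade2-1, the alleles leu2-3, 112 and his3-11,15, and also can1-100, in every group. Cultures were kept at 30 °C in a synthetic complete broth (2% glucose) until the optical density was near 1. They then received 0.4 mM allyl alcohol for 3 h (2 arrays) or were left untreated (2 arrays), and 6 µg of total RNA was labelled for each array. The question was which transcripts change with allyl alcohol, which yeast alcohol dehydrogenases oxidise to the thiol-reactive aldehyde acrolein. The 2 cultures of a group were separate experiments of 1 strain, and the labels give no incubation time for the untreated cultures, so growth time and treatment cannot be told apart.

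Trehalose is a disaccharide of glucose that yeast stores when growth slows and that protects proteins and membranes under heat, drying and oxidants. Tps1 joins UDP-glucose and glucose phosphate to trehalose phosphate, and Tps2 removes the phosphate. Tps3 and Tsl1 are related large subunits that regulate this complex. Nth1 is the cytosolic neutral trehalase that protein kinase A switches on, Nth2 is its paralog, and Ath1 is the acid trehalase, which lets cells use trehalose from outside. Several of these genes carry stress response elements read by Msn2 and Msn4, and trehalose is often made and degraded at the same time in stressed yeast.

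The arrays went against their labels, and this touches every value that follows. Across the 5449 genes, which are not independent replicates, Pearson's r was 0.740 between the arrays labelled allyl alcohol replicates 1 and 2 and 0.757 between those labelled untreated replicates 1 and 2. It was 0.991 between allyl alcohol replicate 1 and untreated replicate 2, and 0.996 between allyl alcohol replicate 2 and untreated replicate 1. Arrays are therefore called by their labels, and every direction is that of the labels. Whether the labels of 1 array in each group were exchanged was not tested. If they were, the comparison by label would not be that of treatment. An array's background was the 95th percentile of its probe sets named for genes that the S. cerevisiae table does not hold, and between 97.4% and 99.4% of genes exceeded it. The added Bacillus poly-A controls (12 probe sets) had a median log2 signal 1.14 higher on allyl alcohol replicate 1 than on replicate 2, and 0.92 higher on untreated replicate 2 than on replicate 1. For the hybridisation controls (18 probe sets) these medians were 0.15 and 0.20. The part of either control set in the differences between arrays was not tested. The MATa genes STE2, BAR1, MFA1 and STE6 were above background on all 4 arrays by at least 3.97, and so were the MATalpha genes STE3 and MF(ALPHA)1, by at least 3.22, and MF(ALPHA)2, by at least 0.77. The strain is labelled MATa, so passing this background does not by itself show that a gene is expressed. STE2 had 10.59 and 13.11 in allyl alcohol replicates 1 and 2, against 13.11 and 10.64 in untreated replicates 1 and 2. BAR1, MFA1, STE6 and STE3 were also lower on allyl alcohol replicate 1 and untreated replicate 2, and MF(ALPHA)1 and MF(ALPHA)2 were higher.

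By label, no trehalose gene passed the test. All 7 group means were slightly lower in allyl alcohol than in untreated samples, by a log2 difference of 0.05 to 0.21, with a median of -0.11. Over all genes the median was -0.02 and 58% had a lower mean in allyl alcohol. The neutral trehalase gene NTH1 was the member whose 2 allyl alcohol arrays both lay below both untreated arrays. In limma with Benjamini-Hochberg adjustment over the 5449 genes, 0 of 7 members and 0% of all genes were called at 0.05. Before adjustment 0 genes had a p under 0.05, and among the members the lowest p was 0.544. Member by member, the signals below are log2 RMA values, in which a step of 1 is a 2-fold change. A lower signal does not tell fewer transcripts in each cell from fewer cells that hold them.

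TPS1 (YBR126C), the trehalose phosphate synthase gene, was the steadiest member. Its log2 signal was 13.51 and 13.36 on the arrays labelled allyl alcohol replicates 1 and 2, and 13.53 and 13.46 on those labelled untreated replicates 1 and 2. The 4 values span 0.17, a smaller range than that of all but 3.36% of genes, and the groups overlap. The log2 difference was -0.06 (standard error 0.32, adjusted p = 1 in limma), with a 95% interval of -0.97 to 0.85. This was the member whose whole interval lay within a 2-fold change either way. Without allyl alcohol replicate 2 the difference was 0.01.

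TPS2 (YDR074W), the phosphatase gene, varied more. It had 12.14 and 12.48 in allyl alcohol replicates 1 and 2, against 12.75 and 12.23 in untreated replicates 1 and 2. The highest and the second lowest value both came from untreated samples, so the groups overlap. Its log2 difference was -0.18 (standard error 0.39, adjusted p = 1 in limma), with a 95% interval of -1.29 to 0.93. Without untreated replicate 1 it was 0.08.

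The paralogs that regulate the complex did not share a pattern. TPS3 (YMR261C) had 12.28 and 12.46 in allyl alcohol replicates 1 and 2, against 12.66 and 12.33 in untreated replicates 1 and 2, the same order of arrays as TPS2. Its log2 difference was -0.13 (standard error 0.34, adjusted p = 1 in limma), and 0.04 without untreated replicate 1. TSL1 (YML100W) had 13.63 and 12.83 in allyl alcohol samples, against 13.15 and 13.43 in untreated samples, so that its highest and lowest values were both labelled allyl alcohol. The log2 difference of TSL1 was -0.06 (standard error 0.44, adjusted p = 1 in limma). Leaving out allyl alcohol replicate 2 gave 0.34, and leaving out untreated replicate 2 gave 0.08. Where TPS3 was low, on allyl alcohol replicate 1 and untreated replicate 2, TSL1 was high. Both genes were far above background, by at least 6.82 for TPS3 and 7.19 for TSL1.

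**Figure D1:**
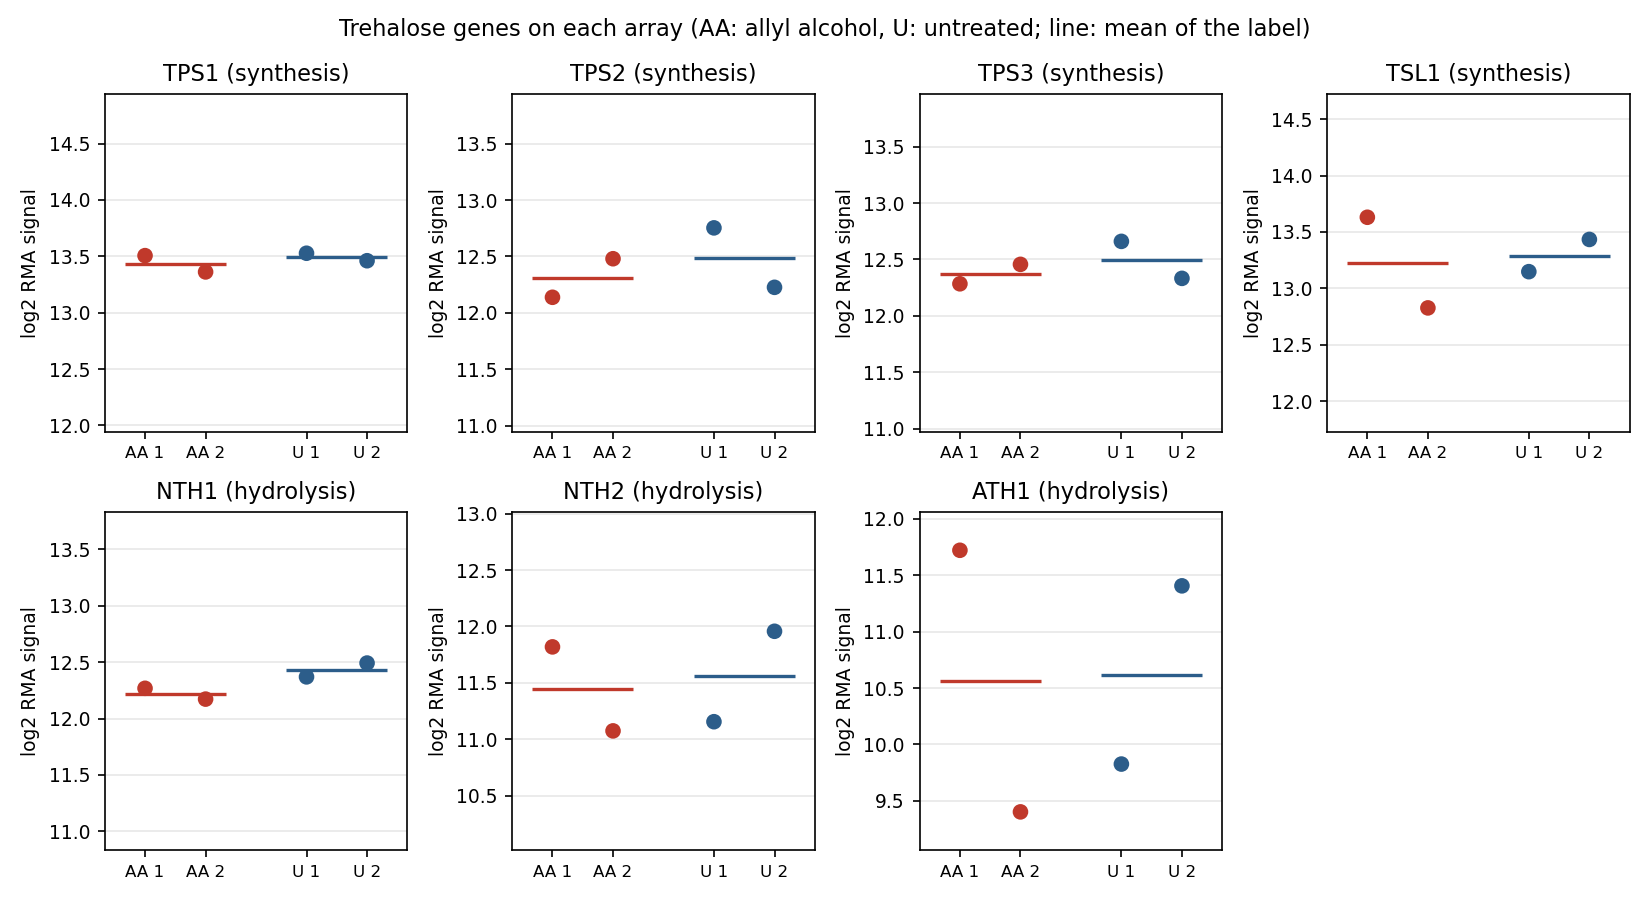
Log2 RMA signal of the 7 trehalose genes on each array, with allyl alcohol (AA) arrays left of untreated (U) arrays and a line at the mean of each label. Every panel spans 3 log2 units around its own middle, so the spread can be compared between genes but not the level. The groups are separate for NTH1, and ATH1 runs between 9.40 and 11.72.

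The trehalase genes ranged from NTH1, the second steadiest of the 7, to ATH1, the most variable. NTH1 (YDR001C) had a log2 signal of 12.27 and 12.17 in allyl alcohol replicates 1 and 2, against 12.37 and 12.49 in untreated replicates 1 and 2. The groups do not overlap, as for 3.34% of all genes in this direction and 5.23% in either direction. The log2 difference was -0.21 (standard error 0.32, adjusted p = 1 in limma), with a 95% interval of -1.12 to 0.69. Because the groups do not overlap, its sign could not change when each array was left out in turn. The difference then lay between -0.27 and -0.15. An exact permutation test of 2 arrays against 2 cannot give a two-sided p below 0.333.

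NTH2 (YBR001C), the paralog of NTH1, had 11.82 and 11.07 in allyl alcohol replicates 1 and 2, against 11.16 and 11.96 in untreated replicates 1 and 2. Each label thus held a high and a low array, and the means differed by -0.11 on the log2 scale (standard error 0.51, adjusted p = 1 in limma). Without allyl alcohol replicate 2 the difference was 0.26, and without untreated replicate 2 it was 0.29.

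ATH1 (YPR026W), the acid trehalase gene, had 11.72 and 9.40 in allyl alcohol replicates 1 and 2, against 9.83 and 11.41 in untreated replicates 1 and 2. High values were again on allyl alcohol replicate 1 and untreated replicate 2. The group means nearly cancelled, with 10.56 ± 1.64 in allyl alcohol and 10.62 ± 1.12 in untreated samples (SD, n = 2 each). The log2 difference of -0.05 had a standard error of 1.08 and an adjusted p of 1 in limma, and its 95% interval ran from -3.15 to 3.04. This interval holds large changes in either direction, so the small difference does not show an unchanged transcript. Leaving out allyl alcohol replicate 2 or untreated replicate 2 gave 1.11 and 0.74, and leaving out allyl alcohol replicate 1 or untreated replicate 1 gave -1.21 and -0.84.

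**Figure D2:**
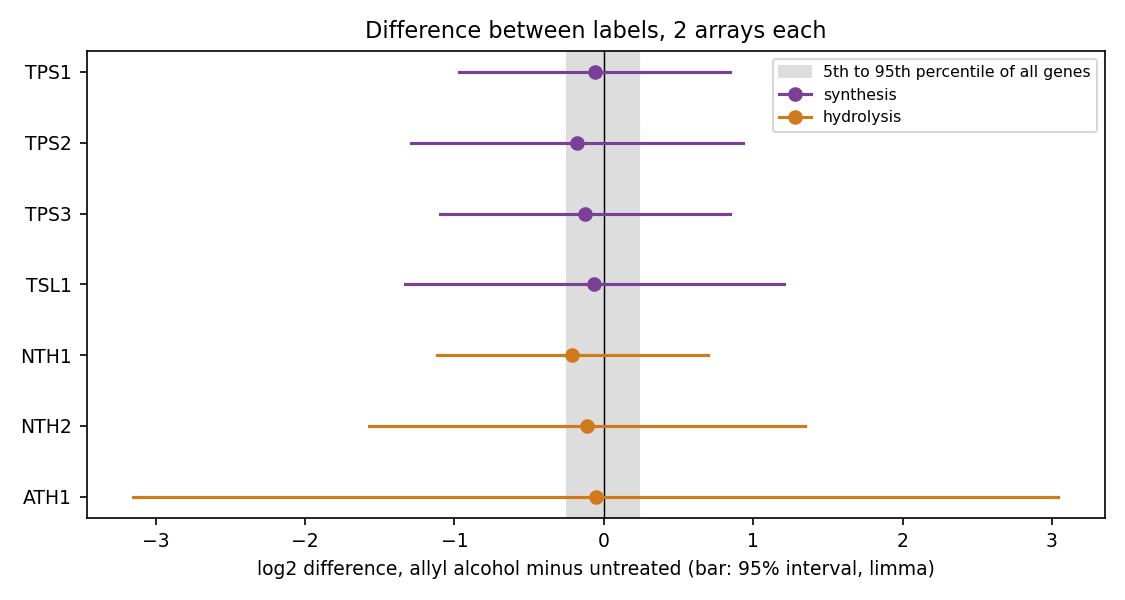
Log2 difference, allyl alcohol minus untreated, for the 7 trehalose genes, with 95% intervals from limma (2 arrays per label). The grey band spans the 5th to 95th percentile of all genes, from -0.25 to 0.23. All 7 points lie inside the band and below 0, and all 7 intervals cross 0.

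Single arrays of different labels did not give the members a common direction. All 7 were lower on allyl alcohol replicate 2 than on untreated replicate 1, by 0.08 (NTH2) to 0.42 (ATH1) on the log2 scale, where 53.1% of all genes were lower. On allyl alcohol replicate 1 against untreated replicate 2, 4 members were lower and 56.7% of all genes were. On allyl alcohol replicate 1 against untreated replicate 1, 4 were lower, beside 50.3% of all genes, and ATH1 was higher by 1.90. On allyl alcohol replicate 2 against untreated replicate 2, 5 were lower, beside 51.6% of all genes, and ATH1 had a log2 difference of -2.01. These are differences between 2 arrays, with no replicate and no test.

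Between arrays of the same label, the acid trehalase gene ATH1 stood farthest apart of the 7. These differences are given as allyl alcohol replicate 1 minus replicate 2 and untreated replicate 2 minus replicate 1, an order chosen with earlier results of these data known. ATH1 was 5.0-fold higher on allyl alcohol replicate 1 than on replicate 2, and 2.99-fold higher on untreated replicate 2 than on replicate 1. This was the 1 member at least 2-fold apart in the same direction in both labels, beside 18.6% of all genes that were as ATH1 was and 15.8% that went the other way. A share of 7.98% of genes were at least as far apart as ATH1 in both labels, in either direction. NTH2 was higher on the same arrays, 1.68-fold and 1.74-fold, and NTH1 1.07-fold and 1.09-fold. By the same measure, 44.2% of genes were at least as far apart as NTH2, and 87.1% as NTH1.

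The synthesis genes went both ways. TSL1 was higher on allyl alcohol replicate 1 and on untreated replicate 2, 1.75-fold and 1.22-fold. TPS2 was lower on these arrays, 1.27-fold and 1.44-fold, and TPS3 was lower 1.13-fold and 1.26-fold. TPS1 had log2 differences of 0.14 inside allyl alcohol and -0.07 inside untreated, so its sign differed between the labels. The median of the 3 hydrolysis genes was 0.75 inside allyl alcohol and 0.80 inside untreated, and that of the 4 synthesis genes was -0.01 and -0.20. Over all genes the medians were -0.001 and 0.04, with genes higher and genes lower on these arrays offsetting each other. The hydrolysis medians were the values of NTH2, and 44.2% of genes were at least as far apart in both labels.

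To compare both sides of the pathway on 1 scale, each gene was centred on its own mean over the 4 arrays, and the genes of a side were averaged. The hydrolysis genes then stood at 0.46 and -0.59 in allyl alcohol replicates 1 and 2, and at -0.36 and 0.48 in untreated replicates 1 and 2. The average of the synthesis genes stayed nearer to 0, at 0.001 and -0.11 in allyl alcohol samples and 0.13 and -0.03 in untreated samples. In that average TSL1 went against TPS2 and TPS3, and in the hydrolysis average ATH1 moved most and NTH1 least. Synthesis minus hydrolysis was therefore -0.46 and 0.48 in allyl alcohol replicates 1 and 2, against 0.49 and -0.51 in untreated replicates 1 and 2. The hydrolysis mean was thus the higher on 1 array of each label and the synthesis mean on the other. This balance of transcript signals sums to 0 over the 4 arrays by the centring, so it does not show which side prevailed. By label it averaged 0.01 ± 0.67 in allyl alcohol and -0.01 ± 0.70 in untreated samples (SD, n = 2 each), a difference of 0.02 that lies far within the spread. Without allyl alcohol replicate 1 or untreated replicate 1 the difference was 0.49 and 0.51, and without allyl alcohol replicate 2 or untreated replicate 2 it was -0.46 and -0.48. The difference of this balance between arrays of the same label was -0.95 inside allyl alcohol and -0.99 inside untreated with all 7 genes. Without ATH1 it was -0.31 and -0.62.

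**Figure D3:**
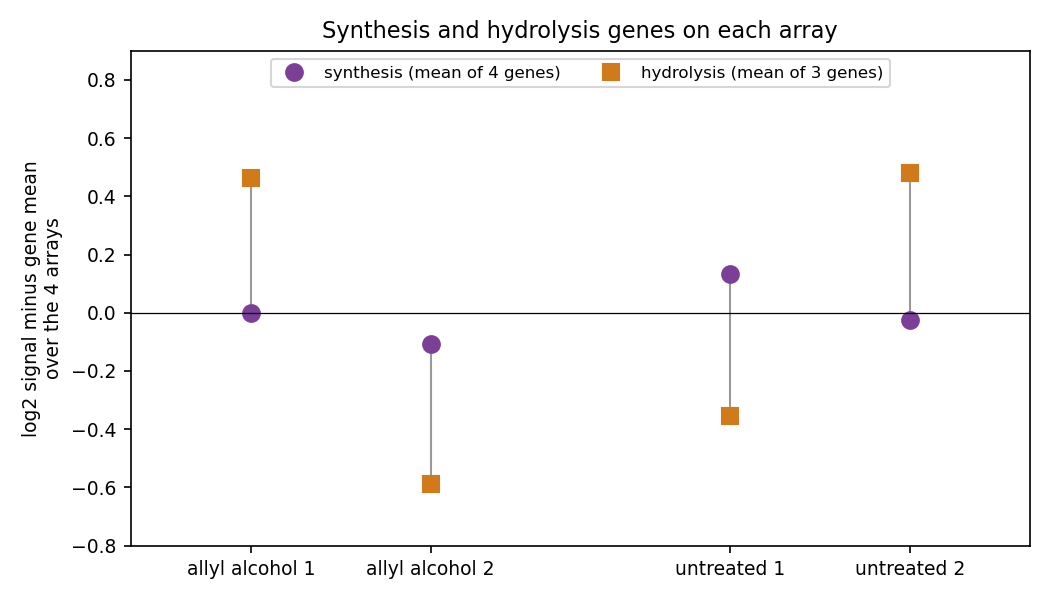
Mean centred log2 signal of the 4 synthesis genes (circles) and the 3 hydrolysis genes (squares) on each array, with allyl alcohol arrays on the left; grey lines join the 2 sides. The hydrolysis mean stands above the synthesis mean on allyl alcohol replicate 1 and untreated replicate 2, and below it on the other arrays.

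Genes that supply the substrates of Tps1 were mostly lower on the arrays with high ATH1. Of 6 such genes, 0 were called in limma between labels, with a median log2 difference of -0.05. Inside both labels 3 of the 6 were at least 2-fold lower on allyl alcohol replicate 1 and untreated replicate 2, beside 15.8% of all genes, and 0 were higher. PGM1, a phosphoglucomutase gene, had 10.12 and 11.94 in allyl alcohol replicates 1 and 2, against 11.91 and 10.04 in untreated replicates 1 and 2. HXK1, a hexokinase gene, had 12.42 and 13.70 in allyl alcohol samples, against 13.83 and 11.74 in untreated samples. GLK1, the glucokinase gene, had 12.79 and 13.93 in allyl alcohol samples, against 14.06 and 12.82 in untreated samples. These genes were low on the arrays where ATH1 and NTH2 were high.

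The other 3 supply genes were closer together. PGM2, the major phosphoglucomutase gene, differed by -0.88 inside allyl alcohol and -1.01 inside untreated, and HXK2, the main hexokinase gene on glucose, by -0.52 and -0.57. UGP1, whose product makes UDP-glucose, differed by 0.24 and 0.01, close to TPS1. Glycogen draws on the same UDP-glucose, and 3 of its 8 genes were at least 2-fold lower on the same arrays in both labels, beside 15.8% of all genes, and 0 were higher, beside 18.6%. The synthase genes GSY1 and GSY2 differed by -2.46 and -1.35 inside allyl alcohol and by -3.15 and -2.04 inside untreated. The phosphorylase gene GPH1 differed by -2.38 and -2.64, and the glycogenin gene GLG2 by -1.03 and -0.90. The median over the 8 glycogen genes was -0.57 inside allyl alcohol and -0.72 inside untreated, against -0.01 and -0.20 for the 4 trehalose synthesis genes.

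**Figure D4:**
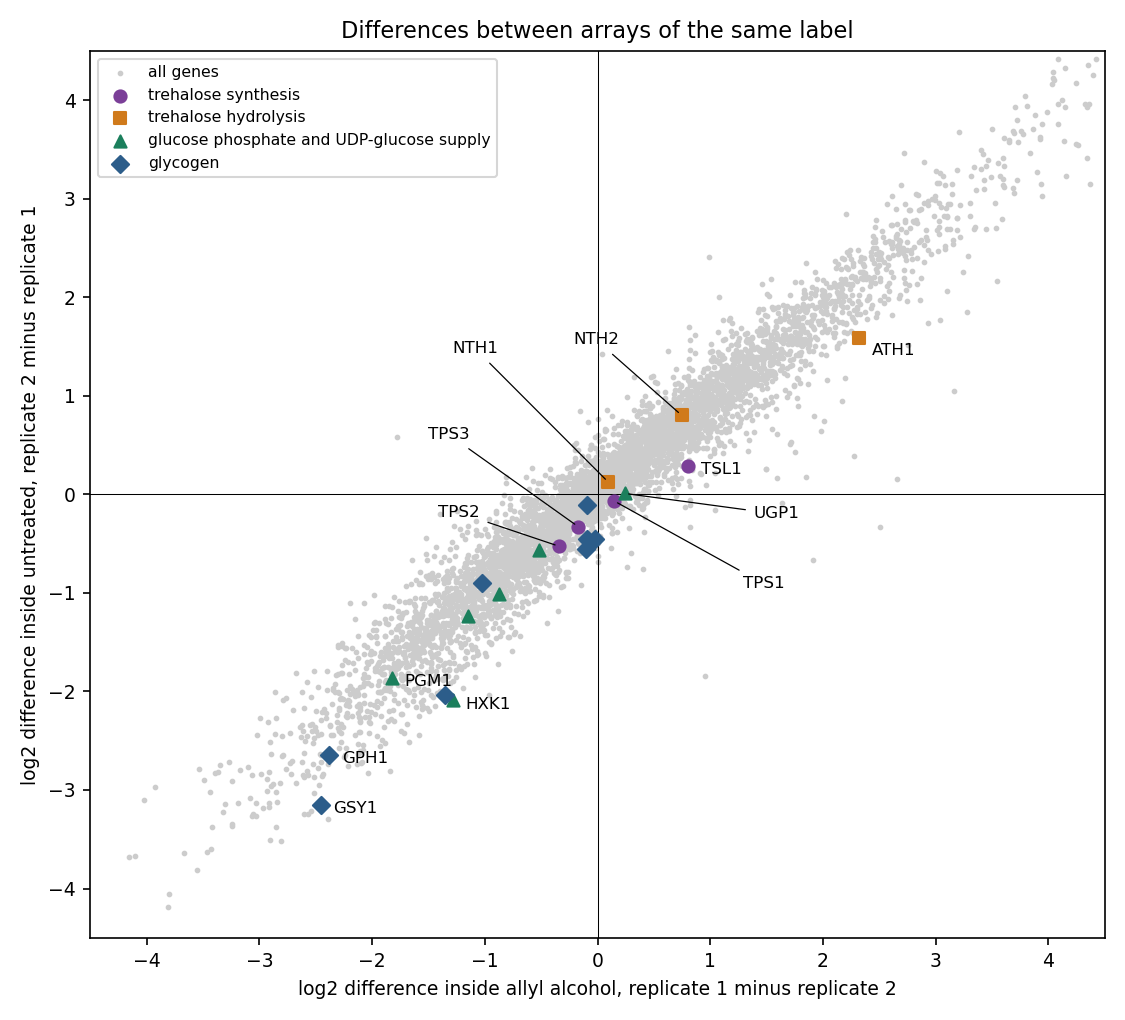
Log2 difference between arrays of the same label for all genes (grey): allyl alcohol replicate 1 minus replicate 2 on the horizontal axis and untreated replicate 2 minus replicate 1 on the vertical axis. Coloured points mark trehalose, substrate supply and glycogen genes, and 32 genes lie outside the axes. ATH1 and NTH2 lie to the upper right, the TPS genes near the centre, and PGM1, HXK1, GSY1 and GPH1 to the lower left.

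Regulators of trehalose metabolism were examined next, over the 12 of them that were analysed here. None was called in limma (0 of 12), and the median log2 difference between labels was -0.09. Between the labels, 2 of the 12 did not overlap, beside 5.23% of all genes: HSF1, the heat shock factor gene, had 10.43 and 10.28 in allyl alcohol samples, against 10.24 and 9.97 in untreated samples. DCS1 had 12.01 and 11.92 in allyl alcohol samples, against 12.17 and 12.17 in untreated samples. Both were named after their values were seen. Inside both labels 2 of 12 were at least 2-fold higher on allyl alcohol replicate 1 and untreated replicate 2, beside 18.6% of all genes, and 0 were lower.

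RIM15, a kinase gene of nutrient signalling upstream of stress genes, had 11.05 and 8.59 in allyl alcohol replicates 1 and 2, against 8.95 and 11.09 in untreated replicates 1 and 2. GIS1, an activator gene that acts after Rim15, had 12.54 and 11.21 in allyl alcohol samples, against 11.42 and 12.50 in untreated samples. Both were high where ATH1 was high. The stress activator gene MSN4 went the other way, by -0.92 inside allyl alcohol and -0.996 inside untreated, while its paralog MSN2 differed by 0.24 and 0.33. MAL11, the gene of a transporter that takes up maltose and trehalose, was higher on the arrays with high ATH1, by 0.96 and 0.78. Of the protein kinase A subunit genes TPK2, TPK3 and BCY1, 0 reached a 2-fold difference, with TPK2 at 0.78 and 0.62, TPK3 at -0.28 and -0.16, and BCY1 at -0.41 and -0.32. BMH1 and BMH2, whose products bind Nth1, differed by 0.07 and 0.23 inside allyl alcohol and by 0.04 and 0.12 inside untreated. MSN2, the kinase subunit genes, BMH1 and BMH2 were also named after their values were seen.

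General stress genes, with which trehalose genes are often induced, went both ways. Of 16 genes, 4 were at least 2-fold higher on allyl alcohol replicate 1 and untreated replicate 2 in both labels, beside 18.6% of all genes. On the same arrays 2 were lower, beside 15.8% of all genes, and 0 were called between labels. SSA4, an Hsp70 gene, differed by 1.53 inside allyl alcohol and 1.39 inside untreated, and the transketolase gene TKL2 by 1.57 and 1.22. SOL4 and GAD1, genes of the pentose phosphate pathway and of glutamate breakdown, differed by -1.92 and -1.57 inside allyl alcohol and by -2.49 and -1.82 inside untreated. The list median was 0.47 and 0.34, between the medians of the trehalose hydrolysis and synthesis genes.

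Genes with the pattern most like that of a member were found by the smallest Euclidean distance between centred log2 signals over the 4 arrays. For TSL1 these were RMD5, YBL111C and PRR2, at distances of 0.06, 0.08 and 0.11. For NTH1 they were PIR3, SET4 and ATG33, at 0.03, 0.04 and 0.05. SET4 signals ran between 4.36 and 4.70, below background on all 4 arrays, so its place is uncertain. For ATH1, a search added after its values were seen, they were HBT1, YPR015C and MET28, at 0.03, 0.07 and 0.11. HBT1 had 11.43 and 9.14 in allyl alcohol replicates 1 and 2, against 9.54 and 11.16 in untreated replicates 1 and 2. With 4 arrays such likeness is easily found among 5449 genes and is given as a description.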

How the data were processed

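The authors deposited 1 log2 value for every probe set on each array. Per the submitters' processing notes, the tools were Affymetrix Expression Console and RMA, with versions, settings and build not given in the sources used here. A log2 scale was inferred from the deposited values, which ran between 2.78 and 14.75. RMA equalizes the distributions of arrays, so a broad change in mRNA is partly removed.

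Of 10928 probe sets, 5498 matched a gene of the RefSeq table of R64 by gene ID, and 1746 named probe sets outside it set the background. The brightest probe set stood for each of 47 genes with several. Allyl alcohol was compared with untreated by sample label in limma 3.58.1 under R 4.3.3 (lmFit, eBayes, no block, two-sided, Benjamini-Hochberg at 0.05). With 2 arrays per group, their number and the spread inside a label limit the precision.

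Named were all members and substrate supply genes, and up to 4 genes of each other list by mean absolute difference inside labels, and 3 genes most like TSL1 and NTH1; exceptions are marked in the text. Members and lists were chosen with earlier results of these data known. The test was tested on simulated data: with the measured spread over 5449 genes it called 0, 0, 4 and 22% of genes changed by absolute log2 values of 1, 2, 4 and 6, with independent noise on each array. With that spread divided by 10 it called 86, 94, 100 and 100%, and 10 unchanged genes. The measured arrays are not independent in this way. The correlation across genes of deviations from the group mean was -0.973 for arrays with the same number. Whether the replicate numbers pair the cultures was not tested.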

Additional observations from a re-analysis of the deposited data

How the results depend on the processing

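The 0 calls among genes and members held under every setting run: mean of probe sets, renewed quantile normalization, median centring, no dim genes, an intensity trend, all probe sets, each array left out, and the replicate number as a block (0 genes, 0 members). The crossed pairing as a block, chosen after seeing the data, called 0 genes and 0 members. At an unadjusted p under 0.05, limma gave 188 genes with the crossed pairing, 8 of 10715 probe sets when all were tested, and 0 elsewhere; no member was among them. Leaving out arrays in turn moved the member differences (allyl alcohol minus untreated, log2) between -0.13 and 0.012 for TPS1, -0.44 and 0.083 for TPS2, -0.29 and 0.038 for TPS3, -0.46 and 0.34 for TSL1, -0.51 and 0.29 for NTH2, and -1.21 and 1.11 for ATH1. The 7 members were all lower in allyl alcohol under both other scalings, with medians of -0.12 and -0.09, beside 53.4% and 52.6% of all genes. ATH1 stayed the 1 member at least 2-fold apart inside both labels. Without allyl alcohol replicate 1 or 2, 7 and 3 members were lower, beside 51.8% and 51.7% of all genes. Without untreated replicate 1 or 2, 5 and 4 members were lower, beside 53.8% and 50.9% of all genes. The cause of these shifts was not tested.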
